A study of Zea mays with 58 samples.

Results

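Maize roots that had been given nitrogen were compared between 120 min and 5 min after the supply began. The comparison takes 6 of the 58 libraries of a root time course, namely replicates 1, 2 and 3 of the nitrogen medium at 120 min and replicates 1, 2 and 3 of the same medium at 5 min, chosen by their labels. All seedlings were of the inbred line B73, were starved of nitrogen for 2 days and were moved to fresh medium at 10 days of age. The nitrogen medium (N) held 20 mM KNO3 and 20 mM NH4NO3, part of it isotope-labelled, and the other medium (noN) held 20 mM KCl. Each replicate pooled 3 seedlings. The groups used here are N roots at 120 min (n = 3), N roots at 5 min (n = 3), the N roots at 10 to 90 min between them, and, for the same span without nitrogen, noN roots at 120 min (n = 4) and at 5 min (n = 3). Values of the other noN groups, among them noN roots at time 0 (n = 3), are given in a few places. No library of N roots at time 0 was analysed here, so the change is counted from 5 min after transfer.

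Nitrate is both a nutrient and a signal in plant roots. In Arabidopsis, transcription factors of the NIN-like protein family carry the nitrate signal to genes for uptake and reduction, and slower layers of regulators then act on metabolism and growth. Ammonium, which this medium also supplied, enters amino acids through glutamine synthetase and glutamate synthase. In maize, roots carry out uptake and part of the assimilation. Between a pair of times within 1 medium, this response cannot be told apart from other changes that follow a transfer.

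Transcripts were read near their polyadenylated ends, with counts per gene model as the unit. The 120 min libraries held 2861335, 2624012 and 2856928 counts, and the 5 min libraries 2578186, 2371646 and 2486438, inside the range of all 58 libraries (1978039 to 3790442). Plastid-encoded features took 0 to 1 counts in each 120 min library and 3 to 6 in each 5 min library. Nuclear root and shoot markers were not analysed here, because the gene model IDs are not paired with names in the tables used. For the same reason the genes are described by their values, class and place, with few IDs. Replicate 3 at 5 min stood apart. Its counts differed from those of replicates 1 and 2 at 5 min with a chi-square per degree of freedom of 7.57 and 7.68, against 2.16 between replicates 1 and 2 at 5 min and 2.15 to 3.46 among the 120 min libraries. Its 50 most counted features took 10.87% of the counts, against 9.455% and 9.727% in the other two and 8.68% to 9.038% at 120 min. Main results are therefore given with and without it.

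Of 18872 genes tested, 4456 (23.6%) differed between 120 and 5 min in N roots (edgeR quasi-likelihood test, Benjamini-Hochberg adjusted p of 0.05, here "called"). At 120 min 2267 genes (12%) were higher and 2189 (11.6%) were lower than at 5 min. The changes upward reached further. By at least 1 on the log2 scale, that is 2-fold, 1046 genes (5.54%) rose and 706 (3.74%) fell. By at least 2 on that scale 240 rose and 80 fell, by at least 3 67 and 7, and by at least 4 35 and 1. The median log2 fold change over all genes tested was -0.012. Without replicate 3 at 5 min 2785 genes were called, 1526 higher and 1259 lower, of which 803 and 472 reached a log2 fold change of 1. In bulk roots, fewer cells of a type and less RNA per cell cannot be told apart.

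**Figure D1:**
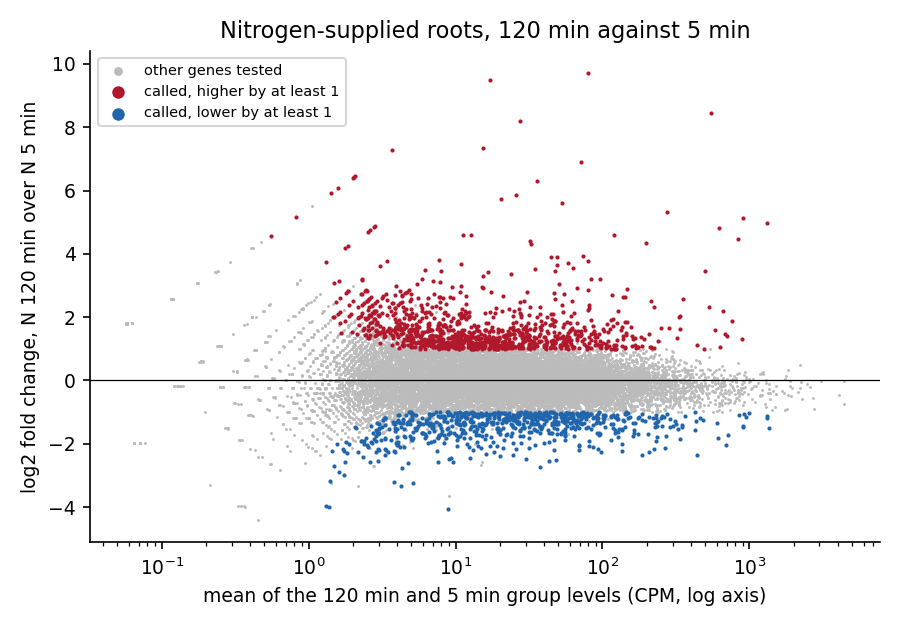
Each point is a gene of the 18872 tested, with the mean of its 120 min and 5 min levels (CPM, log axis) across and its log2 fold change, N 120 min over N 5 min, up the page. Red points are the 1046 called genes higher by at least 1 and blue points the 706 lower by at least 1; of the called changes of at least 4, 35 are upward and 1 is downward.

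The ID with the smallest p among those that rose was Zm00001d024633 (AGPv4 chromosome 10, 81347903 to 81352638, plus strand, exon length 2700 bases). Its level was 1099, 1291 and 1194 CPM (library-scaled counts) in the 120 min libraries, against 42.99, 46.31 and 37.74 CPM in the 5 min libraries. The groups lay far apart, and within each the libraries were close. The log2 fold change was 4.82 (SE 0.22, edgeR adjusted p = 3.174e-21), 28.2-fold. In N roots it stood at 42.44 ± 10.64 CPM after 10 min, 90.27 ± 21.66 after 20 min, 238.8 ± 50 after 30 min, 801.2 ± 111.1 after 60 min and 1053 ± 87.59 after 90 min (SD, n = 3 each). It was still level at 10 min and climbed from 20 min on. In noN roots it averaged 43.96 ± 8.295 CPM at 120 min (SD, n = 4) and 37.4 ± 6.481 CPM at 5 min (n = 3), a difference of 0.24 on the log2 scale (SE 0.20) that was not called (edgeR adjusted p = 0.3779).

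A second risen ID, Zm00001d025015 (4835 exon bases on the plus strand of chromosome 10, 99806303 to 99812704), rose and then came partly down. It had 403.9, 346.5 and 380.7 CPM in the 120 min libraries and 16.27, 21.01 and 18.87 CPM in the 5 min libraries, with no overlap. Its log2 fold change was 4.33 (SE 0.21, edgeR adjusted p = 8.368e-21), 20.1-fold. Its highest mean in N roots, 702.5 ± 105 CPM (SD, n = 3), was at 90 min, and by 120 min it had fallen again, with a log2 fold change over 90 min of -0.90 (SE 0.17, adjusted p = 0.01557 in edgeR). The comparison of 120 with 5 min thus catches this gene after its peak. In noN roots it averaged 18.59 ± 3.38 CPM at 120 min (n = 4) and 16.68 ± 3.468 CPM at 5 min (n = 3).

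Zm00001d002601 (chromosome 2, 16461905 to 16462911, minus strand, exon length 915 bases) fell late. Its level was 299.2, 256 and 257.4 CPM in the 120 min libraries, against 829.6, 1014 and 1531 CPM in the 5 min libraries, the highest of these in replicate 3. All 120 min libraries lay below all 5 min libraries. The log2 fold change was -2.05 (SE 0.21, edgeR adjusted p = 3.62e-10), and -1.77 without replicate 3 at 5 min. In N roots it averaged 984.1 ± 154.1 CPM after 45 min, 687.2 ± 127.5 after 60 min and 313.4 ± 36.48 after 90 min (SD, n = 3 each), so that most of the fall lay between 45 and 90 min. In noN roots it also fell, to 437 ± 102.8 CPM at 120 min (SD, n = 4), against 778.9 ± 87.49 CPM at 5 min (n = 3), a change of -0.83 on the log2 scale (SE 0.19, adjusted p = 0.0006025 in edgeR).

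Zm00001d034836 (1335 exon bases on the plus strand of chromosome 1, 303454791 to 303456205) fell earlier. It had 52.18, 42.42 and 51.68 CPM in the 120 min libraries and 189.8, 189.5 and 164.3 CPM in the 5 min libraries, again without overlap. The log2 fold change was -1.89 (SE 0.21, edgeR adjusted p = 4.358e-09). Its N level was 122.3 ± 22.11 CPM after 30 min, 46.67 ± 9.985 after 60 min and 38.54 ± 5.561 after 90 min (SD, n = 3 each). The difference of 0.06 (SE 0.22) between 120 and 60 min was not called (edgeR adjusted p = 0.9155). In noN roots it fell by 0.97 in log2 units (SE 0.19, adjusted p = 9.881e-05 in edgeR), to 75.29 ± 20.5 CPM at 120 min (n = 4), against 148.2 ± 19.81 CPM at 5 min (n = 3). All 4 IDs are targets in the authors' network table and none is a regulator there. Whether reads of near-identical gene copies were split or lost was not tested, for want of a genome of this build.

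**Figure D2:**
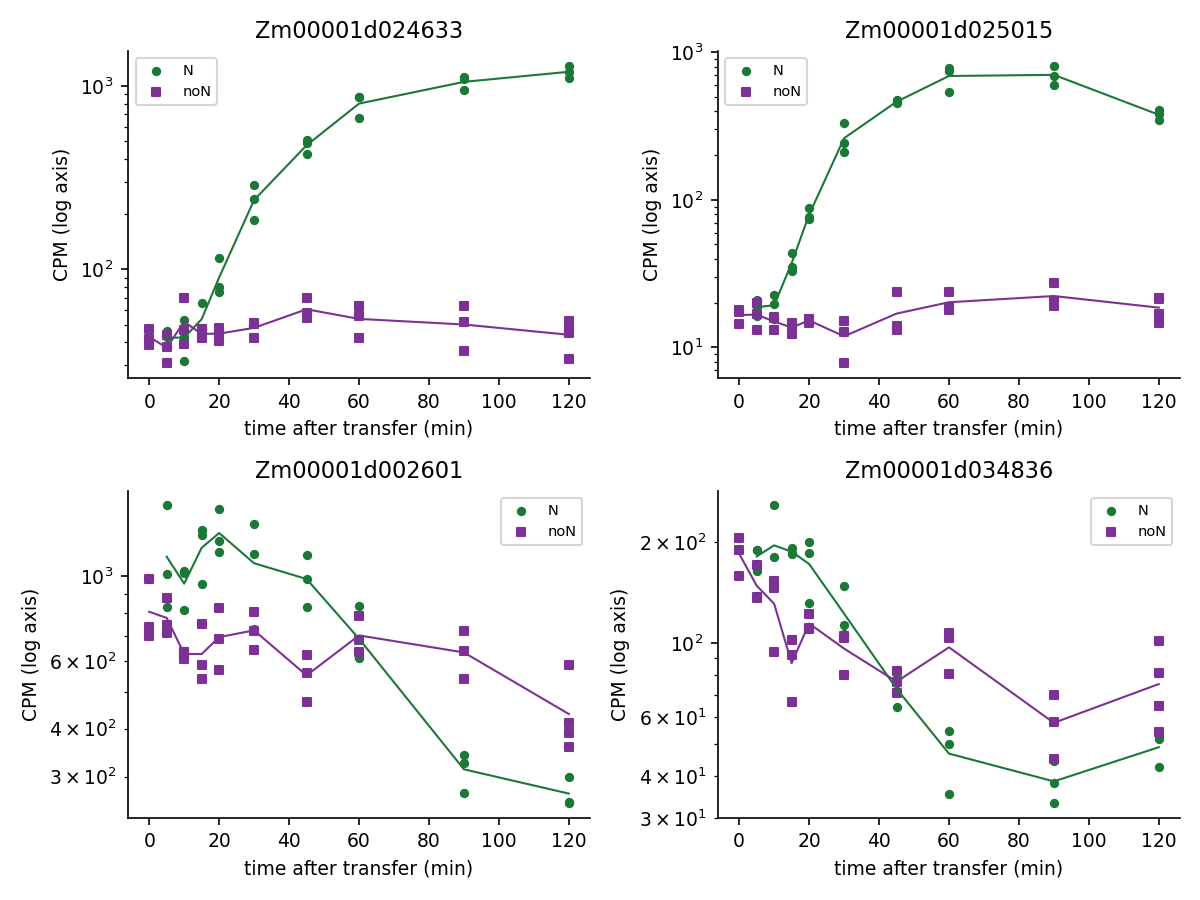
Each panel is an ID, with time after transfer (min) across and CPM (log axis) up the page; points are libraries, lines join group means, green circles are N roots and purple squares noN roots. The upper 2 IDs have left their noN levels in N roots by 30 min and reach means of 1195 and 702.5 CPM, and the lower 2 end in N roots at 270.9 and 48.76 CPM, below their noN means of 437 and 75.29 CPM.

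The 3 IDs that follow were singled out after their values had been seen. Zm00001d038718 (chromosome 6, 163324435 to 163325813, minus strand, exon length 1084 bases) had the largest rise among the genes called. It had 133, 202.3 and 140.6 CPM in the 120 min libraries, against 0, 0.4288 and 0 CPM in the 5 min libraries, where a single count was found. The ratio of the summed counts scaled to library size, 1120, has a 95% interval of 200 to 44100 that covers counting error only. The fitted log2 value of 9.71 (SE 0.92, edgeR adjusted p = 4.622e-11) rests on that single count. In N roots it averaged 31.38 ± 26.26 CPM at 30 min and 235.6 ± 76.4 CPM at 90 min (SD, n = 3 each), and its noN group means were between 0.2965 and 2.582 CPM. At 5 min 9 of the risen genes had no count in any library, and against 3 counts over the group they were at least 2.51-fold to at least 80.1-fold higher at 120 min. No fallen gene was without counts at 120 min.

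Zm00001d045392 (1217 exon bases on the plus strand of chromosome 9, 20480509 to 20481751) was the most abundant of the genes that fell by at least 1. Its level was 921.2, 567.6 and 626.4 CPM in the 120 min libraries and 1896, 1892 and 2237 CPM in the 5 min libraries. The log2 fold change was -1.51 (SE 0.27, edgeR adjusted p = 4.384e-05). Its lowest N mean, 446.5 ± 136.2 CPM (SD, n = 3), was at 90 min. It fell in noN roots too, to 371.1 ± 212.7 CPM at 120 min (SD, n = 4), against 1970 ± 182.3 CPM at 5 min (n = 3), and the difference between the changes in N and noN, 0.90, was not called (edgeR adjusted p = 0.08474). Zm00001d052192 (chromosome 4, 182751796 to 182753978, minus strand, exon length 1611 bases) fell most among the regulators of the authors' network. It had 6.22, 6.382 and 6.202 CPM in the 120 min libraries, against 36.8, 25.3 and 28.99 CPM in the 5 min libraries, a change of -2.27 on the log2 scale (SE 0.28, adjusted p = 3.702e-08 in edgeR). Its log2 change at 120 min over 60 min was -1.46 (SE 0.29, adjusted p = 0.001103 in edgeR). The last step, 120 over 90 min, was -0.87 (SE 0.29) and was not called (edgeR adjusted p = 0.3964). Its choice by the change from 5 to 120 min favours low values in the 120 min libraries. In noN roots it fell as well, with a log2 change of -0.87 (SE 0.24, adjusted p = 0.004174 in edgeR). There it averaged 13.07 ± 2.995 CPM at 120 min (SD, n = 4) and 24.07 ± 8.741 CPM at 5 min (n = 3).

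The genes that rose were of low abundance at the start, and those that fell were of higher abundance. The 1046 risen genes had a median level of 18.8 CPM at 120 min and 6.72 CPM at 5 min, and the 706 fallen genes 13.2 CPM at 120 min and 34.3 CPM at 5 min. Over all genes tested the medians were 21 and 20.3 CPM. At 100 CPM or more stood 138 of the risen genes at 120 min and 31 at 5 min, and 50 of the fallen genes at 120 min and 144 at 5 min. At 1000 CPM or more stood 9 risen genes at 120 min and 0 at 5 min, and 0 fallen genes at 120 min and 11 at 5 min. These levels partly restate the direction by which the genes were chosen. With the genes in 3 equal bins by mean level, 9.54% of the lowest bin were called higher and 4.26% lower, 14% and 10.5% of the middle bin, and 12.5% and 20% of the highest bin.

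The share of all counts on the risen and fallen genes was followed as well. These genes were chosen by their change between the same 120 and 5 min libraries. The direction in which their shares differ between those libraries therefore restates the choice. Called genes with smaller changes are left out of these shares. The risen genes took 6.376%, 6.788% and 6.434% of the counts in the 120 min libraries, against 1.976%, 1.981% and 1.544% in the 5 min libraries. The fallen genes took 2.793%, 2.422% and 2.586% at 120 min, against 5.631%, 5.665% and 7.404% at 5 min, the last of these in replicate 3. In between, the share on risen genes in N roots averaged 2.164% after 10 min, 2.487% after 20 min, 3.701% after 30 min, 4.394% after 45 min, 5.603% after 60 min and 6.427% after 90 min (n = 3 each). In noN roots it averaged 3.841% ± 0.3744 at 120 min (SD, n = 4) and 1.996% ± 0.143 at 5 min (n = 3).

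Of the 1046 risen genes, the 3 libraries at 120 min all lay above the 3 at 5 min in 1022, and of the 706 fallen genes they all lay below in 671. Over all genes tested 21.2% were separated upward in this way and 20.9% downward. The contrast that chose the genes used the same libraries. The weakest members had log2 fold changes of 1.0005 and -1, and the nearest called genes left out had 0.9999 and -0.9994.

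More genes differed from 5 min at each later time, and those called first were mostly higher. Against 5 min, 4 genes were higher and 0 lower after 10 min (0.0212% of genes called), 99 and 4 after 15 min (0.546%), 338 and 55 after 20 min (2.08%), 822 and 366 after 30 min (6.3%) and 841 and 479 after 45 min (6.99%). After 60 min 1458 were higher and 1152 lower (13.8%), and after 90 min 1990 and 2048 (21.4%). Genes higher than at 5 min made up 96.1% of those called after 15 min, 69.2% after 30 min and 50.9% after 120 min. All these comparisons use the same 5 min libraries. Single libraries decided part of them: with 1 library left out, 49 to 121 genes were called after 15 min and 190 to 440 after 20 min, 1629 after 60 min without replicate 1 of that time, and 2229 after 90 min without replicate 3 at 5 min. From 60 min on, 380 genes gained and 364 lost by 120 min (3.94%), and from 90 min on 10 and 10 (0.106%, with 1258 genes at an unadjusted p of 0.05). The first of these counts, 744 in all, was 299 without replicate 1 at 60 min, and the second, 20 in all, was 1 without replicate 1 at 90 min. A joint test over the 9 N times called 7481 genes (39.6%), of which 3979 were called between 120 and 5 min and 3502 were not.

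**Figure D3:**
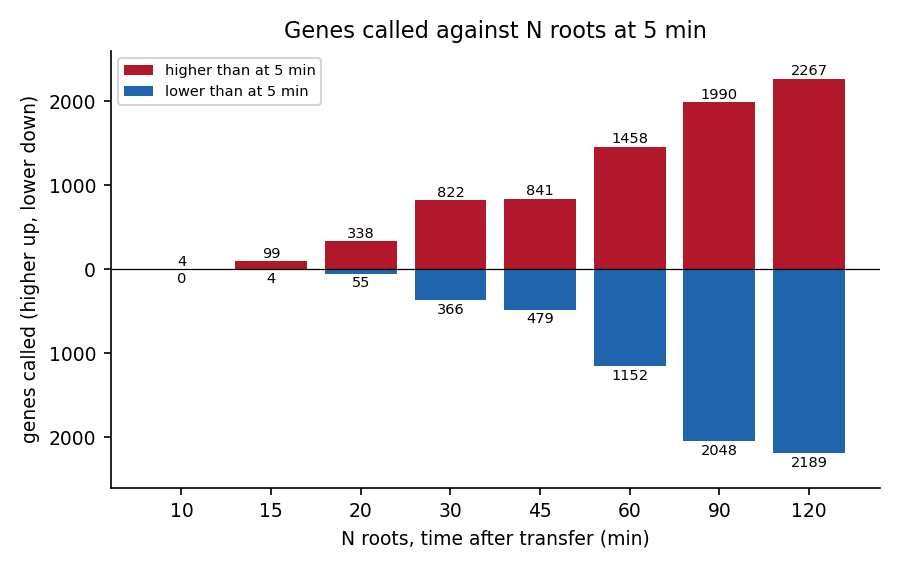
Bars give the number of genes called higher (up) and lower (down) than in N roots at 5 min, for each later time in N roots. The first changes are upward, 99 higher and 4 lower at 15 min, and the sides are near equal at 120 min, 2267 higher and 2189 lower.

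The same genes were followed in libraries whose group means did not enter the contrast that chose them. The low-count filter and the estimate of spread were shared over all 58 libraries. Genes with a low shared spread are called more easily in both comparisons, and the part of this in the shares below was not tested. N roots at 15 to 90 min against N roots at 10 min share no library with the comparison of 120 and 5 min. The 1046 risen genes had a median log2 fold change over 10 min of 0.06 after 15 min, 0.05 after 20 min, 0.29 after 30 min, 0.51 after 45 min, 0.85 after 60 min and 1.07 after 90 min, the last with an interquartile range of 0.7 to 1.59. After 15 min 7 of them (0.669%) were called higher, against 0.0583% of all genes tested. After 20 min 57 were (5.45% against 1.29%), after 30 min 205 (19.6% against 3.48%) and after 45 min 284 (27.2% against 5.04%). After 60 min 460 were called higher (44% against 7.66%) and after 90 min 625, which is 59.8% of them against 9.29% of all genes tested. At 90 min 1 of them (0.0956%) was called lower, against 9.34% of all genes tested. The 15 min count over all genes, 11, and the 20 min count, 326, moved with single libraries, from 0 to 49 and from 109 to 621 when 1 library was left out. Over all genes 924 were called after 45 min and 2213 after 90 min without replicate 2 at 10 min, against 1602 and 3516 with it, and the share of 59.8% was then 46.8%.

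The 706 fallen genes moved later. Their median log2 fold change over 10 min was 0.14 after 15 min, 0.15 after 20 min, -0.21 after 30 min, -0.35 after 45 min, -0.66 after 60 min and -0.97 after 90 min. After 15 min 0 of them were called lower, against 0% of all genes tested. After 20 min 1 was (0.142% against 0.435%), after 30 min 37 (5.24% against 1.35%) and after 45 min 93 (13.2% against 3.44%). After 60 min 242 were called lower (34.3% against 6.44%) and after 90 min 397, which is 56.2% of them against 9.34% of all genes tested. At 20 min 9 of them (1.27%) were called higher, near the 1.29% of all genes tested. Without replicate 3 at 5 min, where 803 genes rose and 472 fell by at least 1, the shares called the same way at 90 min over 10 min were 66.3% and 56.4%.

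**Figure D4:**
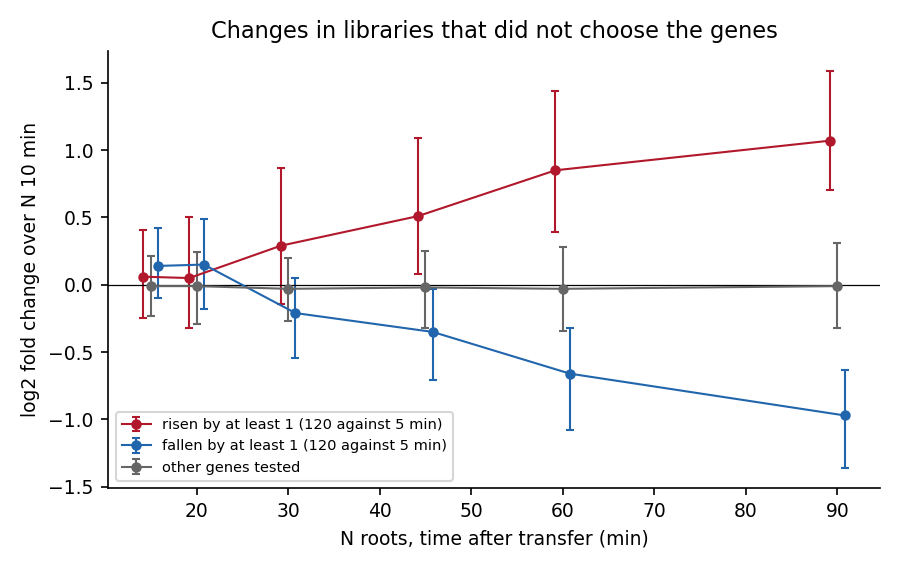
Points are the median log2 fold change over N roots at 10 min of the 1046 risen genes (red), the 706 fallen genes (blue) and the other genes tested (grey), by time after transfer (min), and bars span the interquartile range over genes. At 15 and 20 min the medians lie between -0.01 and 0.15, and by 90 min they reach 1.07 and -0.97 while the other genes are at -0.01.

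Group means place the extreme of most of these genes at the end of the sampling. Of the risen genes 49 had their highest N mean after 30 min, 32 after 45 min, 121 after 60 min, 232 after 90 min and 600 after 120 min. Of the fallen genes 51 had their lowest N mean after 60 min, 219 after 90 min and 403 after 120 min. The choice of genes by their 120 min level favours 120 min. Between 90 and 120 min 20 genes were called, a count that does not measure how close the means are. The log2 fold change of 120 over 90 min had a median of 0.14 in the risen genes (interquartile range -0.1 to 0.34). In the fallen genes its median was -0.18 (interquartile range -0.52 to 0.17).

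The same span without nitrogen was compared as well. In noN roots 3109 genes (16.5%) were higher and 2346 (12.4%) lower at 120 than at 5 min. By limma on the quantile normalized values, which lack noN replicate 4 at 120 min, these were 2663 and 2821, so the lean turned. Of the genes risen in N, 462 (44.2%) were called higher and 15 lower in noN, with a median log2 fold change of 0.71. Of the genes fallen in N, 217 (30.7%) were called lower and 36 higher in noN, with a median of -0.39. The means of these noN libraries do not enter the comparison in N, though the low-count filter and the estimate of spread were shared over all 58 libraries. The noN libraries of 0 to 45 min differ in makeup from the others: their counts lay on longer gene models. The mean log2 exon length, weighted by counts, was 10.984 to 10.999 in noN at 120 min and 11.022 to 11.05 in noN at 5 min. In N roots it was 10.978 to 10.995 at 120 min and 10.969 to 10.985 at 5 min. The part of this difference in the noN change was not tested.

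The change itself differed between the media in 2526 genes (13.4%), 969 (5.13%) with a more positive and 1557 (8.25%) with a more negative change in N. By limma on the quantile normalized values these were 1201 and 1287. It carries the makeup of the noN libraries at 5 min as a limit, and it shares the 6 N libraries with the comparison in N. Of the 1046 risen genes 257 had a more positive change in N and 23 a more negative one, and of the 706 fallen genes 259 had a more negative change and 6 a more positive one. Between the media at 120 min alone, where the count-weighted exon lengths of the libraries were alike, 1144 genes (6.06%) were higher and 1474 (7.81%) lower in N than in noN. Of the risen genes 364 were higher and 41 lower in N, with a median of 0.58, and of the fallen genes 203 were lower and 21 higher, with a median of -0.60. This contrast shares the N libraries of 120 min, and its count of genes called, 2618, was 1396 without N replicate 2 and 1724 without N replicate 3 at 120 min. By limma on the quantile normalized values, which lack noN replicate 4 at 120 min, 1228 genes were higher and 1229 lower in N.

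The authors' network of these roots pairs 196 regulators with 2294 targets, and every regulator is also listed as a target. It was made from the same study, so its counts are not independent evidence. Of the regulators 35 were higher and 43 lower at 120 than at 5 min, 39.8% in all against 23.6% of all genes tested, with a median log2 fold change of -0.11. Of the targets 533 were higher and 472 lower (43.8%), and of the 16578 genes outside the network 1734 and 1717 (20.8%). Without replicate 3 at 5 min 33 regulators were higher and 28 lower, so the lean towards lower regulators turned.

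Regulators called at the early times were mostly higher, as were the genes called over all. Against 5 min, 15 of the 196 (7.65%) were higher and 0 lower after 15 min, against 0.525% and 0.0212% of all genes tested. After 20 min 34 (17.3%) were higher and 0 lower, against 1.79% and 0.291%. After 30 min 54 (27.6%) were higher and 19 (9.69%) lower, against 4.36% and 1.94%. After 60 min 43 (21.9%) were higher and 40 (20.4%) lower, against 7.73% and 6.1%. After 90 min 33 (16.8%) were higher and 58 (29.6%) lower, against 10.5% and 10.9%. The comparisons with 10 min share no library with the comparison of 120 and 5 min. There 26 regulators (13.3%) were higher and 1 (0.51%) lower after 20 min, against 1.29% and 0.435% of all genes tested. After 30 min 42 (21.4%) were higher and 14 (7.14%) lower, against 3.48% and 1.35%. After 60 min 41 (20.9%) were higher and 37 (18.9%) lower, against 7.66% and 6.44%. After 90 min 32 regulators (16.3%) were higher and 67 (34.2%) lower, against 9.29% and 9.34%. Their summed level was 11170, 10810 and 11050 CPM in the 120 min libraries and 11290, 11470 and 15120 CPM in the 5 min libraries, the last in replicate 3, so the groups were separate but, without that library, close. The highest mean of this sum in N roots was 15970 ± 898 CPM (SD, n = 3) at 20 min. In noN roots 90 regulators (45.9%) were higher and 19 (9.69%) lower at 120 than at 5 min, against 16.5% and 12.4% of all genes tested. The change was more positive in N for 30 regulators (15.3%) and more negative for 93 (47.4%), against 5.13% and 8.25% of all genes tested, with a median of -0.95. Both results carry the makeup of the noN libraries at 5 min as a limit. Between the media at 120 min alone, 35 regulators (17.9%) were higher and 76 (38.8%) lower in N, against 6.06% and 7.81%, with a median of -0.46.

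For each regulator the 25 targets of highest weight were taken from the network. Of the pairs whose regulator was higher at 120 min, 6.74% had a target that was higher and 42.5% a target that was lower. Of the pairs whose regulator was lower, the shares were 8.65% and 38.9%, and of those whose regulator was not called 6.71% and 41.8%. The strongest pairs thus led to lower targets in near equal shares, whatever the regulator did. Over all 2294 targets, each counted once, 23.2% were higher and 20.6% lower, and over all genes tested 12% and 11.6%. Pairs share targets and regulators, so they are not independent, and no test was made.

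**Figure D5:**
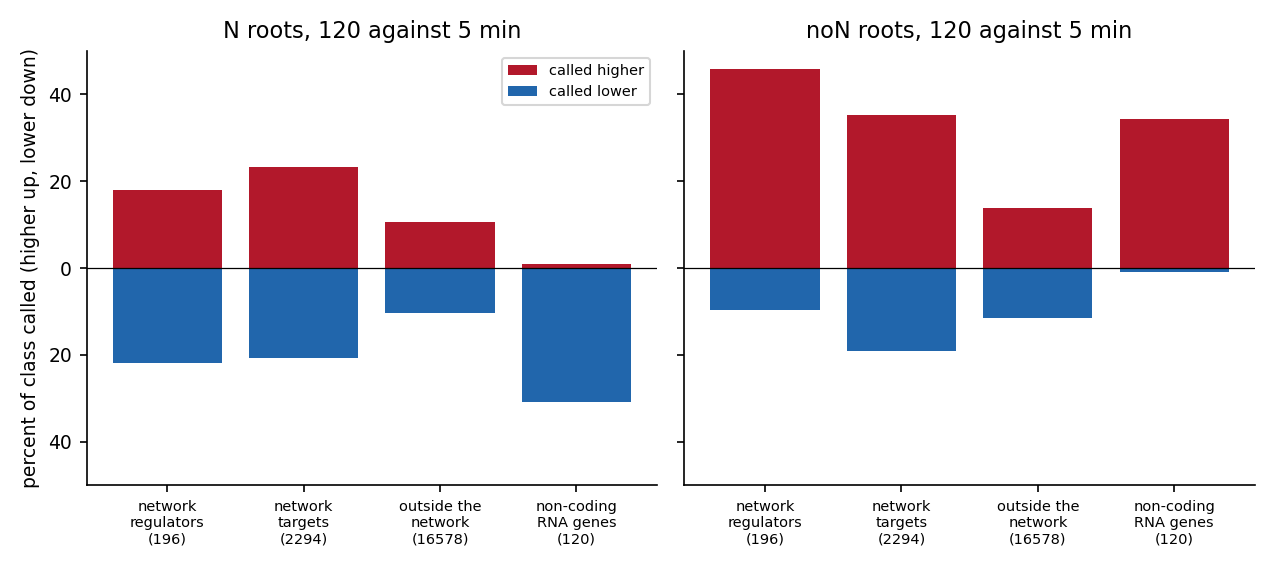
Bars give the percent of each gene class called higher (up) and lower (down) at 120 against 5 min, in N roots on the left and in noN roots on the right; class sizes are in brackets, and regulators are also counted as targets. Of the 120 non-coding RNA genes 30.8% are called lower in N and 34.2% called higher in noN, and most are not called in either medium.

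Genes annotated as non-coding RNA, with IDs that begin with ENSRNA, were mostly lower at 120 min where called. Of 120 tested, 1 was higher and 37 were lower (31.7% called, against 12% higher, 11.6% lower and 23.6% called over all genes tested), with a median log2 fold change of -0.84. Their summed level was 1729, 1442 and 1401 CPM in the 120 min libraries, against 2628, 2626 and 3184 CPM in the 5 min libraries, without overlap. Without replicate 3 at 5 min 1 was higher and 20 were lower, and without replicate 2 at 120 min 1 and 24. At 90 against 5 min 1 was higher and 14 were lower (0.833% and 11.7%, against 10.5% and 10.9% of all genes tested), with a median of -0.5. At 90 against 10 min 3 were higher and 2 lower (2.5% and 1.67%, against 9.29% and 9.34%), with a median of -0.11. The number called lower thus differed with both the start and the end of the comparison. In noN roots 41 of these genes (34.2%) were higher and 1 (0.833%) lower at 120 than at 5 min, against 16.5% and 12.4% of all genes tested. Of the 10 mitochondrial genes tested 0 were called higher and 3 lower in N (11.6% of all genes tested were lower), with a median of -0.85.

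Short gene models changed more often than long ones. With the genes in 3 equal bins by exon length, 7.46% of the shortest bin rose and 5.09% fell by at least 1, 6.07% and 3.66% of the middle bin, and 3.1% and 2.48% of the longest bin. The median exon length was 1650.5 bases for the risen and 1678 bases for the fallen genes, against 2062 bases over all genes tested. The median log2 fold change was 0.02 in the shortest and -0.07 in the longest bin. Risen and fallen genes lay on every nuclear chromosome. The risen share was between 4.91% on chromosome 7 and 6.71% on chromosome 9, and the fallen share between 2.88% on chromosome 6 and 4.08% on chromosomes 4 and 10.

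Few neighbouring genes changed together, though their share lay above that over all genes, and this difference was not tested. Of 328 risen genes with a next tested gene within 20000 bases, 27 (8.23%) had a risen gene there, against 5.54% of all genes tested, and of 239 fallen genes 11 (4.6%) had a fallen one, against 3.74%. Runs of at least 3 consecutive tested genes that rose numbered 6, and runs that fell 4. The longest run, 4 fallen genes, lies on chromosome 3 from 49663556 to 49809196 (AGPv4). Near-identical neighbours could share reads, which was not tested.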

How the data were processed

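Libraries were 3' mRNA libraries with molecular identifiers. The submitters' processing notes name featureCounts 2.0.1, STAR 2.7.6a, fastp 0.21.0 and UMI-tools 1.1.1. Whole-number counts of 46335 features were used as deposited by the authors, counted on the sense strand of AGPv4, per the file headers. The authors' deposited quantile normalized values, a score rounded to whole numbers (18616 genes, 57 libraries), served as an alternative, and the authors' deposited network weights, also a score, gave regulators and targets; the making of both is not stated in any source at hand.

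The filter filterByExpr (minimum count 10, minimum total 15) was applied over all 58 libraries, and scaling was by TMM. A single edgeR 4.0.16 quasi-likelihood model (R 4.3.3), with a mean for each group and 39 residual degrees of freedom, gave the contrasts, with Benjamini-Hochberg adjustment over 18872 genes. CPM values use TMM scaling. Alternatives were DESeq2 1.42.0, limma 3.58.1 on log2(quantile value + 1), DESeq2 size factors, no filter, fewer libraries, a replicate block and leaving out each library. On simulated data for N 120 min against N 5 min, with 200 changed genes among 18872, the test called 11.9% of the 67 genes with a 1.5-fold change, 41.8% of the 67 with a 2-fold change and 83.3% of the 66 with a 4-fold change, and made 3 false calls. Far fewer genes changed there than were called in the data (4456), so its adjusted threshold was stricter and these shares do not carry over.

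The groups, gene lists and tests were chosen with earlier results of these data known. The comparisons with N 10 min and noN 120 against noN 5 min were added after the files had been seen. The rule for named IDs was the 2 risen and 2 fallen IDs of smallest p, changed by at least 1 on the log2 scale, with no overlap of the 6 libraries. The reference table pairs none of the tested IDs with a name, so the gene and marker lists have 0 members and were not tested, and no sequences are shown. Replicates pool different seedlings per the labels' protocols. The labels give no batch. Among replicates of 120 or 5 min no pair of libraries differed by as little as sampling noise. Intervals cover counting error only.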

Additional observations from a re-analysis of the deposited data

Results flagged for a closer look

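The change from 5 to 120 min differed between N and noN roots in 2526 genes by the test of the difference itself. Among the IDs named, the difference of the changes, N minus noN on the log2 scale, passed this test for Zm00001d024633 (4.57), Zm00001d025015 (4.19), Zm00001d038718 (9.32, resting on few counts at 5 min), Zm00001d002601 (-1.22), Zm00001d034836 (-0.92) and Zm00001d052192 (-1.4). Both risen rule IDs thus changed in N by far more than in noN, and both fallen ones fell further in N. The rule IDs were chosen by their change in N, and the difference of the changes uses the same N libraries. The choice therefore favours a larger change in N than in noN for these IDs. The noN libraries at 5 min differ in makeup from the other groups compared, as described with the exon lengths, and their part in these differences was not tested.

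Among the 4 noN libraries at 120 min, replicate 4 stood apart in the share of counts on the genes fallen in N, at 4.427%, against 2.861% to 3.036% in the other three. The limit that this gap passes is Dixon's 95% critical value, which by its definition about 1 in 20 groups pass by chance.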

How the results depend on the processing

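The count between 120 and 5 min in N roots was 4456 and stayed between 3679 (no filter on low counts) and 4609 (the 6 libraries alone) over the other settings. Genes called higher outnumbered those called lower in all of these settings except limma on the quantile normalized values, with 2224 higher and 2297 lower; without replicate 1 at 5 min the counts were 1881 and 1900, and without replicate 2 at 5 min 1775 and 1818. Leaving out 1 library gave 2785 (without replicate 3 at 5 min) to 3781 genes. Deviations of same-numbered libraries at 120 and 5 min correlated at 0.012, 0.072 and 0.014, against -0.1 to 0.069 for libraries of unlike number. With 3 libraries a group, these values cannot decide whether the replicate numbers pair the libraries. With the replicate block 4588 genes were called. The log2 fold changes of the 4 rule IDs kept their sign and call in every setting run.

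Small counts moved most. For N 10 min against N 5 min (4 genes) no filter gave 8, DESeq2 11 and the N arm alone 11. For N 120 min against N 90 min (20) DESeq2 gave 44 (30 higher, 14 lower), and the N arm alone gave 19 higher and 10 lower. For N 15 min against N 10 min (11 higher, 0 lower) DESeq2 gave 60 (43 and 17), limma 5 and the N arm alone 19, and for N 20 min against N 10 min (326) DESeq2 gave 496 and the replicate block 499.

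Leaving out 1 library at a time, the lowest and highest counts against N 5 min were 2 and 7 for 10 min, 49 and 121 for 15 min, 190 and 440 for 20 min, 1629 (without replicate 1 at 60 min) and 2609 for 60 min, and 2229 (without replicate 3 at 5 min) and 3585 for 90 min. Against N 10 min they were 0 and 49 for 15 min (0 without replicate 1 or 2 at 10 min), 109 and 621 for 20 min, 924 and 1386 for 45 min, and 2213 and 3464 for 90 min, the lowest for 45 and 90 min without replicate 2 at 10 min. They were 299 (without replicate 1 at 60 min) and 605 for N 120 min against N 60 min, 1 and 12 for N 120 min against N 90 min, 1396 (N replicate 2 at 120 min left out) and 2599 for N against noN at 120 min, and 21 (without replicate 3 at 5 min) and 33 for non-coding RNA genes. The causes were not tested. The simulated data, with 200 changed genes, had a stricter adjusted threshold than the data, where 4456 genes were called. The share of 1.5-fold changes missed in the data was therefore not tested.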
